A study of Mus musculus with 18 samples.

Results

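The choroid plexus epithelium is the sheet of secretory cells that hangs into the brain ventricles and makes cerebrospinal fluid. 9 genes of this epithelium, Ttr, Folr1, Kl, Kcnj13, Clic6, Aqp1, Slc4a5, Calml4 and Sostdc1, were followed in every RNA-seq library of the series. Rows were picked by gene name. Where a name had more entries, such as the 2 of Clic6 in Kdm2b hippocampus, the one with the highest mean was used. All 9 were found under their own names, among 23138 named genes for Kdm2b hippocampus, 23398 for Kdm2b neurospheres and 54429 each for Kdm2b cortex and Rnf2 hippocampus.

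The 18 libraries came from mice at postnatal day 0 (P0) and from cultures of P0 cells. Kdm2b controls carried the floxed allele as Kdm2b fl/+ or fl/fl, and Kdm2b cKO samples were Kdm2b Emx1-delta-CxxC, in which Cre driven by Emx1 removes the exon that encodes the CxxC zinc finger in dorsal telencephalic progenitors. Rnf2 controls were Rnf2 fl/+ or fl/fl, and Rnf2 cKO samples were deleted for Rnf2 by the same driver. Kdm2b hippocampus had 3 control and 3 cKO libraries, and Kdm2b neurospheres, Kdm2b cortex and Rnf2 hippocampus had 2 of each. Neurospheres are floating cultures of neural progenitors, here passaged with FGF2 and EGF before sequencing. Controls could be heterozygous or homozygous for the floxed allele, and nothing in the labels says that replicates were separate litters or animals, so p-values measure the spread between these libraries, which may be technical. Emx1-Cre acts in the dorsal telencephalic lineage, so cells of other origin in a dissected piece keep the intact gene.

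KDM2B binds unmethylated CpG-rich DNA through its CxxC zinc finger and brings a Polycomb repressive complex to it, and RNF2 (RING1B) is the enzyme of that complex that ubiquitinates histone H2A. In the embryo the choroid plexus epithelium arises from the roof plate and from the cortical hem, the strip of dorsal midline that borders the hippocampal primordium and secretes Wnt and BMP ligands. A dissected hippocampus can therefore carry a variable piece of choroid plexus. In bulk tissue, fewer cells of a type and less RNA per cell cannot be told apart.

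Expression was deposited as FPKM, fragment counts scaled to transcript length and to library depth, a scale that allows levels of different genes to be set side by side within a table. The 4 comparisons were normalized separately, so levels from different tables are given next to each other and were tested only within a table. Library identity was checked first. Prox1, a dentate gyrus transcription factor, was at 29.8 to 41.3 FPKM in Kdm2b hippocampus and 19.5 to 22.7 FPKM in Rnf2 hippocampus, against 0.682 to 1.43 FPKM in cortex. Neurod6, a cortical and hippocampal neuron gene, reached 492 to 564 FPKM in cortex and no more than 0.0754 FPKM in neurospheres, where the progenitor factor Sox2 stood at 184 to 257 FPKM. Gene-level FPKM did not mark the deletions: Kdm2b was at 29.4 ± 2.15 (SD, n = 3) in control and 27.2 ± 0.992 (SD, n = 3) in cKO hippocampus, and Rnf2 at 31.5 ± 1.02 and 28.1 ± 0.494 (SD, n = 2 each) in Rnf2 control and cKO hippocampus. Kdm2b was at 22.1 ± 0.224 and 23.1 ± 0.837 FPKM in control and cKO neurospheres and at 16.3 ± 0.833 and 14.8 ± 0.167 FPKM in control and cKO cortex (SD, n = 2 each). Values per gene do not resolve the floxed exon, so this checks no label. The depth of single libraries could not be recovered for Kdm2b hippocampus and neurospheres, while the FPKM steps of the cortex and Rnf2 libraries returned whole reads for 100% of values up to 1000 reads within a tolerance of 0.05, with about 18480000 to 21910000 reads per cortex library and 14650000 to 16330000 per Rnf2 library.

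Because the Kdm2b allele removes a CpG-binding domain, the CpG content of the members' promoters is shown before their expression. RefSeq promoter windows of 300 bases, from 250 before to 50 after a transcription start, were held for 5 of the 9 genes: Aqp1, Calml4, Kcnj13, Kl and Slc4a5. 3 are printed 5′ to 3′ on the gene's strand (build GRCm38.p6), with CpG dinucleotides in capitals, because they span the range from few to many CpGs and include Aqp1, the member that differed in cortex. They lie at chr6:55336049-55336348 (Aqp1, + strand), chr1:87394680-87394979 (Kcnj13, - strand) and chr5:150952357-150952656 (Kl, + strand).
Aqp1: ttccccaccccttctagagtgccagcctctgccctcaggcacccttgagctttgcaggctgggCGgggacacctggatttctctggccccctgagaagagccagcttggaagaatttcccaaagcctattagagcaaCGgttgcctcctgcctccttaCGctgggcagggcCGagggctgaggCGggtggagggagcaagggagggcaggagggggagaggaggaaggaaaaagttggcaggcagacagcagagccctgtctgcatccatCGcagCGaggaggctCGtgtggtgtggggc
Kcnj13: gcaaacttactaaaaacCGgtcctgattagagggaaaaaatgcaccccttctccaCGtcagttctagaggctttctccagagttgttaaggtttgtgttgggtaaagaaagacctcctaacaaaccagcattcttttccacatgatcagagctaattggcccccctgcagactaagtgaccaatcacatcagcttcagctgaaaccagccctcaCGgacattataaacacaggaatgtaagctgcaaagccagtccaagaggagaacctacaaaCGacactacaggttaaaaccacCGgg
Kl: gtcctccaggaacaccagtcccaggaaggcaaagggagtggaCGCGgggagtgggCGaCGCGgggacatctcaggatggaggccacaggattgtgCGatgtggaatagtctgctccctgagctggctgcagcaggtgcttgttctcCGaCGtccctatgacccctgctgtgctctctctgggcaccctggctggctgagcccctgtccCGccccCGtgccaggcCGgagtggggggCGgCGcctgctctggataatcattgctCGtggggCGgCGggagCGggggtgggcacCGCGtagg

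The Kl window held 19 CpGs, an observed over expected ratio of 0.570, which placed it at the 62.3rd percentile of 32851 promoters. The Kcnj13 window held 5 (ratio 0.322) and the Aqp1 window 8 (ratio 0.278), both below the median ratio of 0.384 over all promoters. Calml4 held 8 (ratio 0.332) and Slc4a5 held 6 (ratio 0.204). The median ratio was thus 0.322 for 5 member promoters, beside 0.438 for 31 promoters of 23 further choroid plexus genes and 0.766 for 11 promoters of 11 hem and roof plate genes. The RefSeq start was the 5′ end of the gene model used for cortex in Kl and Kcnj13, lay 24 bases from it for Calml4 and 133 bases upstream of it for Aqp1, and lay 17547 bases inside the Slc4a5 gene model. None of the 5 windows held TAATCC, the core letters that OTX homeodomain factors recognise, on either strand, while 7.06% of all promoter windows did. OTX2 is a transcription factor needed for choroid plexus development, and its gene is among the further genes below.

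**Figure D1:**
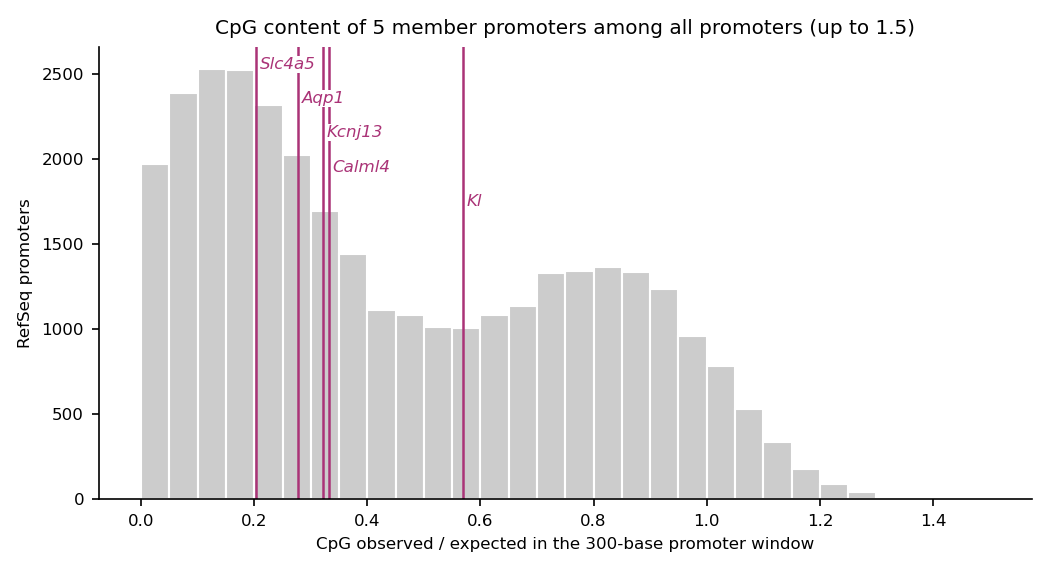
Histogram of the CpG observed over expected ratio (x axis, no unit) over RefSeq promoter windows of 300 bases (y axis, number of promoters; ratios up to 1.5 are drawn), with a line for each of the 5 members that had a window. 4 of the lines, from 0.204 for Slc4a5 to 0.332 for Calml4, lie in the CpG-poor part of the distribution, and Kl lies at 0.570.

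Ttr, which encodes the thyroid hormone and retinol carrier transthyretin that the epithelium secretes into cerebrospinal fluid, was the highest of the 9 in all hippocampal libraries. It was at 7.26 ± 6.0 FPKM (SD, n = 3) in Kdm2b hippocampal controls and 29.5 ± 25.4 FPKM (SD, n = 2) in Rnf2 hippocampal controls, against 0.425 ± 0.600 FPKM in cortical and 0.125 ± 0.177 FPKM in neurosphere controls (SD, n = 2 each). Below Ttr, the order of the mean control levels in Kdm2b hippocampus was Sostdc1 (1.93 FPKM), Calml4 (1.69 FPKM), Folr1 (0.778 FPKM), Aqp1 (0.565 FPKM), Kl (0.324 FPKM), Clic6 (0.255 FPKM), Kcnj13 (0.199 FPKM) and Slc4a5 (0.0446 FPKM). Neighbours in that order overlapped in their libraries from Sostdc1 to Aqp1 and from Kl to Kcnj13, and Ttr and Slc4a5 stood apart from theirs. In Rnf2 hippocampal controls the order was Ttr, Sostdc1 (1.80 FPKM), Folr1 (0.807 FPKM), Clic6 (0.539 FPKM), Aqp1 (0.492 FPKM), Calml4 (0.297 FPKM), Kcnj13 (0.235 FPKM), Slc4a5 (0.0629 FPKM) and Kl (0.0602 FPKM). There Ttr stood apart and every pair of neighbours below it overlapped. All 9 genes were thus read above 0 in at least 1 library of both hippocampal comparisons, but apart from Ttr none reached a control mean of 2 FPKM.

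**Figure D2:**
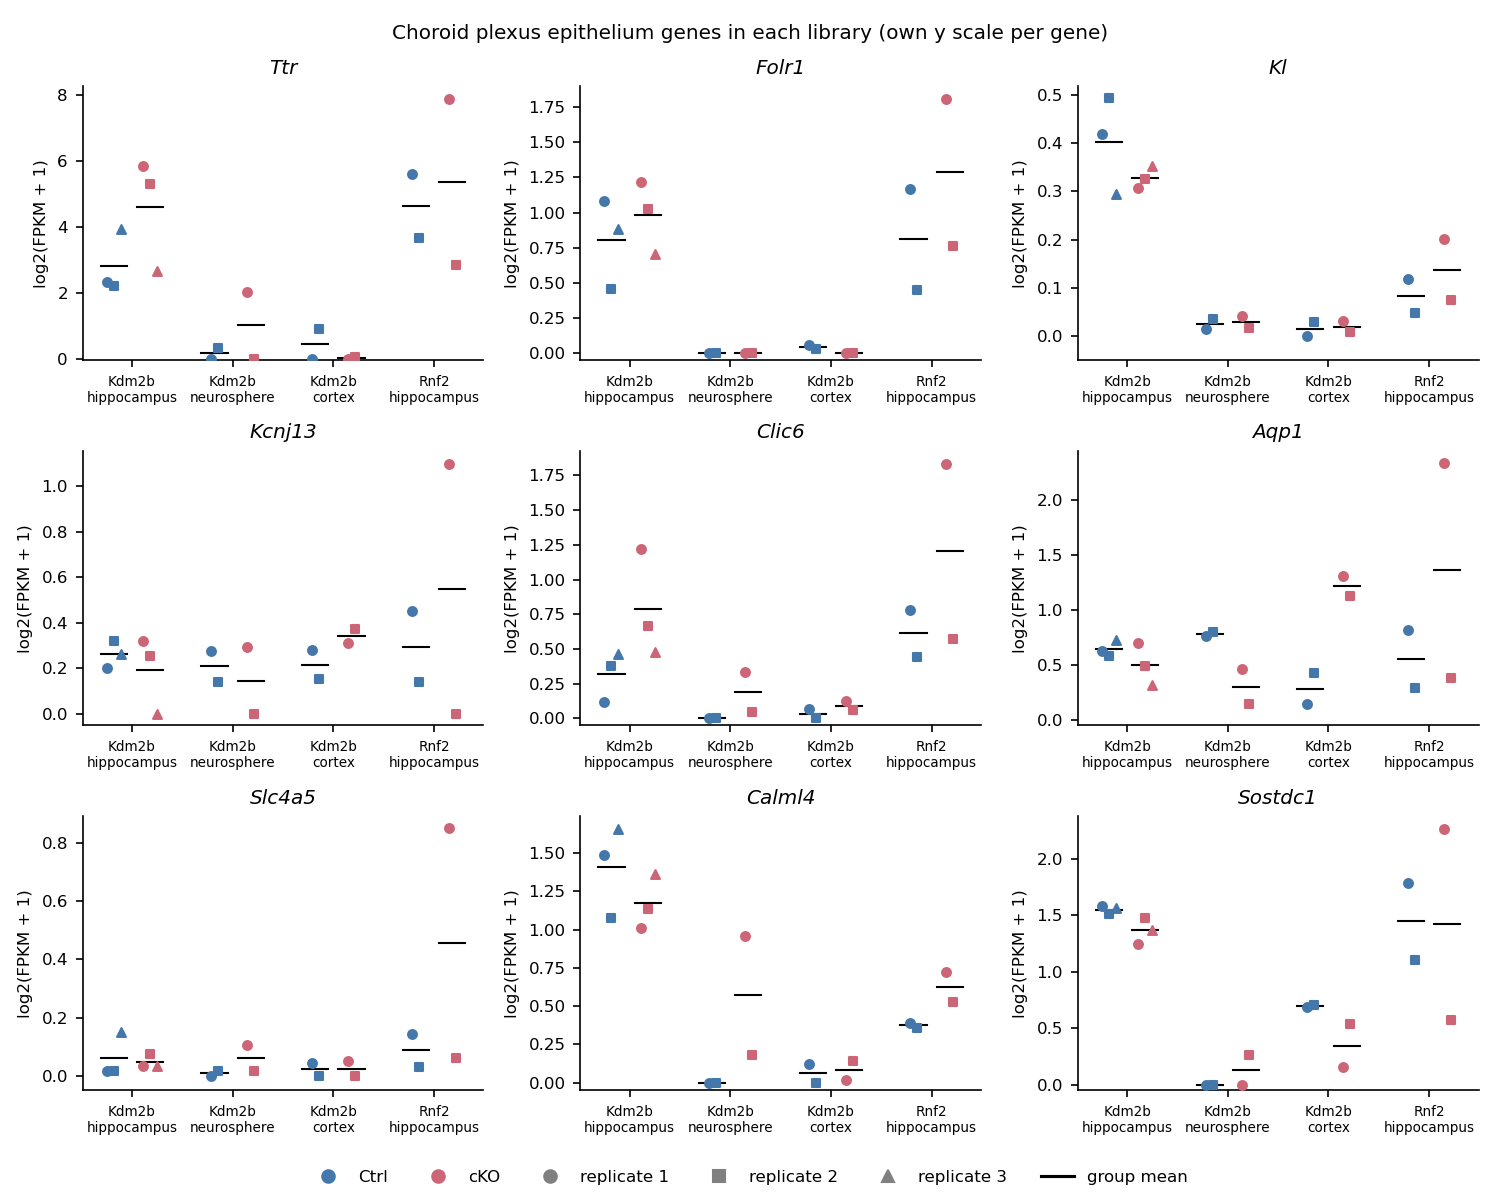
Each panel is 1 gene: the y axis is log2(FPKM + 1), on a scale of its own, and the x axis the 4 comparisons, with blue points for control and red points for cKO libraries, shapes for replicate numbers and black bars for group means. The single red circle of Rnf2 cKO replicate 1 stands above the other 3 Rnf2 libraries in every panel, and in Kdm2b hippocampus Ttr and Clic6 are highest in cKO replicate 1.

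In Kdm2b hippocampus, Ttr and Clic6 were higher in cKO, and the other tested members did not pass the test. Tests used limma on log2(FPKM + 1) with genes whose table mean reached 0.5 FPKM. A call required a log2 fold change beyond 0.4 in either direction together with an unadjusted p below 0.05, the thresholds of the study. By this rule 2 of the 5 tested members were called higher and 0 lower, beside 3.89% of 13446 genes called higher and 2.25% called lower. Neither passed a Benjamini-Hochberg adjusted p of 0.05. Clic6 passed the filter through its cKO libraries, at means of 0.255 FPKM in controls and 0.769 FPKM in cKO. Aqp1, at means of 0.565 FPKM in controls and 0.424 FPKM in cKO, fell under the filter with a table mean of 0.495 FPKM. The count of 2 of 5 therefore rests partly on the filter. The median log2 fold change was 0.18 over the 5 tested members and 0.01 over all genes tested.

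Ttr was at 3.96, 3.64 and 14.2 FPKM in the 3 control libraries and at 56.0, 37.9 and 5.29 FPKM in the 3 cKO libraries. cKO replicates 1 and 2 lay above every control, and cKO replicate 3 lay below control replicate 3, so the groups overlapped. The log2 fold change was 1.77 ± 0.75 (SE, limma adjusted p = 0.194). The call was lost without control replicate 1 (1.52, limma adjusted p = 0.396), control replicate 2 (1.47, limma adjusted p = 0.365), cKO replicate 1 (1.15, limma adjusted p = 0.430) or cKO replicate 2 (1.43, limma adjusted p = 0.416). Without cKO replicate 3 the log2 fold change was 2.74 (limma adjusted p = 0.0143).

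Clic6, a chloride intracellular channel family protein of secretory epithelia, was at 0.0870, 0.297 and 0.381 FPKM in controls and 1.33, 0.585 and 0.390 FPKM in cKO. Its groups did not overlap, though the lowest cKO library was nearly level with the highest control. The log2 fold change was 0.47 ± 0.20 (SE, limma adjusted p = 0.193). It was lost without control replicate 1 (0.37, limma adjusted p = 0.426) or control replicate 2 (0.49, limma adjusted p = 0.267). Without cKO replicate 1 or cKO replicate 2, Clic6 fell under the filter and had no call.

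Folr1, the folate receptor that carries folate across the epithelium, was at 1.11, 0.375 and 0.844 FPKM in controls and 1.33, 1.04 and 0.631 FPKM in cKO. Its libraries intermingled, and the log2 fold change of 0.18 ± 0.19 (SE) did not pass (limma adjusted p = 0.635). Sostdc1, a secreted BMP antagonist that also modulates Wnt signalling, was at 1.99, 1.84 and 1.95 FPKM in controls and 1.38, 1.79 and 1.59 FPKM in cKO. All 3 cKO libraries lay below all 3 controls, with a log2 fold change of -0.18 ± 0.11 (SE) that was under the size threshold and did not pass (limma adjusted p = 0.351). Calml4, a calmodulin-like light chain of brush border myosins, was at 1.80, 1.11 and 2.16 FPKM in controls and 1.02, 1.19 and 1.58 FPKM in cKO, a log2 difference of -0.24 ± 0.17 (SE, limma adjusted p = 0.442). Without control replicate 2, its lowest control, it was called lower (-0.40, limma adjusted p = 0.159).

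The other 4 members lay under the filter in this tissue and were not tested. Aqp1, the water channel of the apical membrane, ranged from 0.497 to 0.654 FPKM in controls and from 0.249 to 0.621 FPKM in cKO. Kl, which encodes klotho, a co-receptor for FGF23, ranged from 0.227 to 0.408 FPKM in controls and from 0.238 to 0.276 FPKM in cKO. Kcnj13, the inward rectifier potassium channel Kir7.1, ranged from 0.151 to 0.248 FPKM in controls and was 0.248, 0.193 and 0 FPKM in cKO. Slc4a5, a sodium bicarbonate cotransporter, did not exceed 0.111 FPKM. In cKO replicates 1 and 2, where Ttr was at 56.0 and 37.9 FPKM, the 8 members other than Ttr summed to 6.19 and 5.50 FPKM, and they summed to 4.79 to 6.53 FPKM in controls. Ttr made up 90.1% and 87.3% of the members' summed FPKM there, against 39.6%, 43.2% and 68.5% in the controls.

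**Figure D3:**
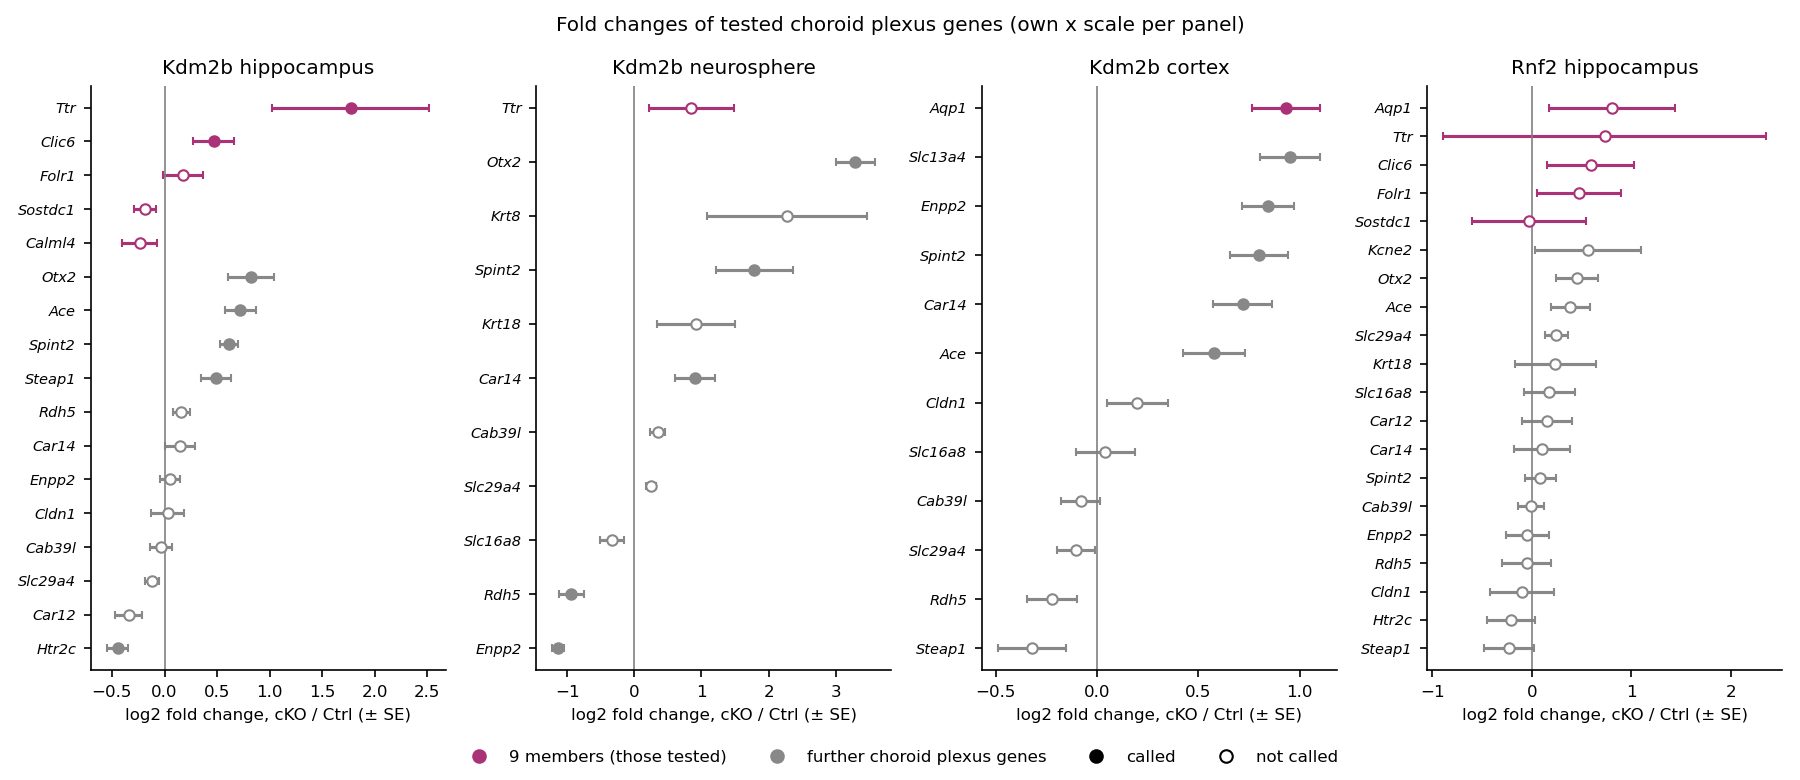
Log2 fold changes of cKO over control (x axis, ± SE, own scale per panel) for the tested members in purple and the tested further choroid plexus genes in grey, with filled points for called genes. In Kdm2b hippocampus, Ttr and Clic6 are filled with 4 further genes on the right and Htr2c on the left; in Rnf2 hippocampus no point is filled and the bar of Ttr spans both sides of 0.

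A list of 25 further choroid plexus genes was described alongside. In Kdm2b hippocampus 12 were tested, 4 were called higher and 1 lower, with a median log2 fold change of 0.10. Otx2 was at 0.714, 0.404 and 0.943 FPKM in controls and 1.81, 3.14 and 1.23 FPKM in cKO, and rose by 0.82 ± 0.22 (SE, limma adjusted p = 0.0515). Ace, angiotensin-converting enzyme, rose by 0.72 ± 0.14 (SE, limma adjusted p = 0.0181), and Spint2, a serine protease inhibitor of epithelia, by 0.62 ± 0.09 (SE, limma adjusted p = 0.00502). Steap1, a metalloreductase family member, rose by 0.49 ± 0.14 (SE, limma adjusted p = 0.0668). Each of these was above all controls in all 3 cKO libraries, an order whose share over all genes was not counted. Of the list, Cldn2, under the filter, was also above all controls. Car12 (-0.34 ± 0.13 SE, limma adjusted p = 0.135, not called) and Prlr, under the filter, were below all controls in all 3 cKO libraries. Htr2c, the remaining called gene and a serotonin receptor that is abundant in choroid plexus and also found in neurons, fell from 7.88 ± 0.825 FPKM to 5.52 ± 0.630 FPKM (SD, n = 3 in each group), which is -0.45 ± 0.10 as log2 fold change (SE, limma adjusted p = 0.0317).

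Hem and roof plate genes, from the source tissue of the epithelium, differed from the members in that their sum did not overlap between cKO and control. Of 15 listed genes 13 were tested, 8 were called higher and 0 lower, with a median log2 fold change of 0.44. Wnt8b, a Wnt ligand of the hem, was at 2.44, 1.08 and 2.16 FPKM in controls and 5.76, 5.40 and 4.86 FPKM in cKO, a rise of 1.16 ± 0.18 (SE, limma adjusted p = 0.00674). Rspo1, an R-spondin that enhances Wnt signalling, rose by 1.12 ± 0.13 (SE, limma adjusted p = 0.00263), and Bmp7, a BMP ligand, by 0.76 ± 0.14 (SE, limma adjusted p = 0.0155). Wnt3a, the hem Wnt ligand required for hippocampal growth, rose by 0.71 ± 0.13 (SE, limma adjusted p = 0.0123). The summed FPKM of the list was 39.4 to 43.8 in controls and 58.3 to 68.0 in cKO, with no overlap, while the summed FPKM of the 9 members was 8.43 to 20.7 in controls and 62.2, 43.4 and 10.03 in cKO replicates 1 to 3. The lowest cKO sum of the hem list, 58.3 FPKM, was also in cKO replicate 3.

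Multiciliated cell genes, which mark ependyma and the ciliated cells of the plexus, gave 0 calls higher and 1 lower among 15 tested: Rsph1, a radial spoke head gene, fell by 0.62 ± 0.13 on the log2 scale (SE, limma adjusted p = 0.0209). Markers of other cells that a dissection could carry were read beside the members. Summed meninges and stroma markers were at 55.1 to 72.7 FPKM in controls and 44.2 to 69.1 FPKM in cKO, where 44.2 FPKM was cKO replicate 3, the cKO library low in Ttr. 0 of these 10 were called, and over the 6 libraries, centred within groups, their Pearson's r with the members' mean log2(FPKM + 1) ran from 0.30 to 0.94 with a median of 0.84, beside a median of 0.05 over all genes. Other lists also followed the members by this measure, with medians of 0.68 for hem and roof plate genes and 0.59 for endothelium markers. Medians were 0.57 for thalamus and habenula markers, 0.30 for multiciliated cell genes and 0.25 for further choroid plexus genes. The 1 blood marker compared had 0.24. Over all 14 tissue libraries the median of the meninges and stroma markers was -0.06. The 8 endothelium markers were at 106 to 135 and 97.8 to 124 FPKM, with 0 called. The blood markers, 6 of 7 found in 5 entries, summed to 75.7 to 167 FPKM and 131 to 154 FPKM, with 0 of 3 tested called. The 5 thalamus and habenula markers, from tissue that adjoins the choroid plexus and hippocampus, summed to 24.1 to 27.7 FPKM in controls and 35.4 to 38.5 FPKM in cKO, and 2 of the 3 tested were called higher, Lhx9 by 0.57 ± 0.09 and Tcf7l2 by 0.40 ± 0.12 (SE, limma adjusted p = 0.00916 and 0.0716). Lhx9 (means of 14.05 FPKM in controls and 21.22 FPKM in cKO) and Slc17a6 (10.98 and 14.16 FPKM) made up most of the thalamus and habenula sum. Gbx2 (0.0381 and 0.228 FPKM) and Pou4f1 (0.0165 and 0.0484 FPKM) were under the filter and not tested. That sum thus does not show that thalamus or habenula tissue was present or differed between the groups. The part of these other cell markers in the values of Ttr and Clic6 was not tested.

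**Figure D4:**
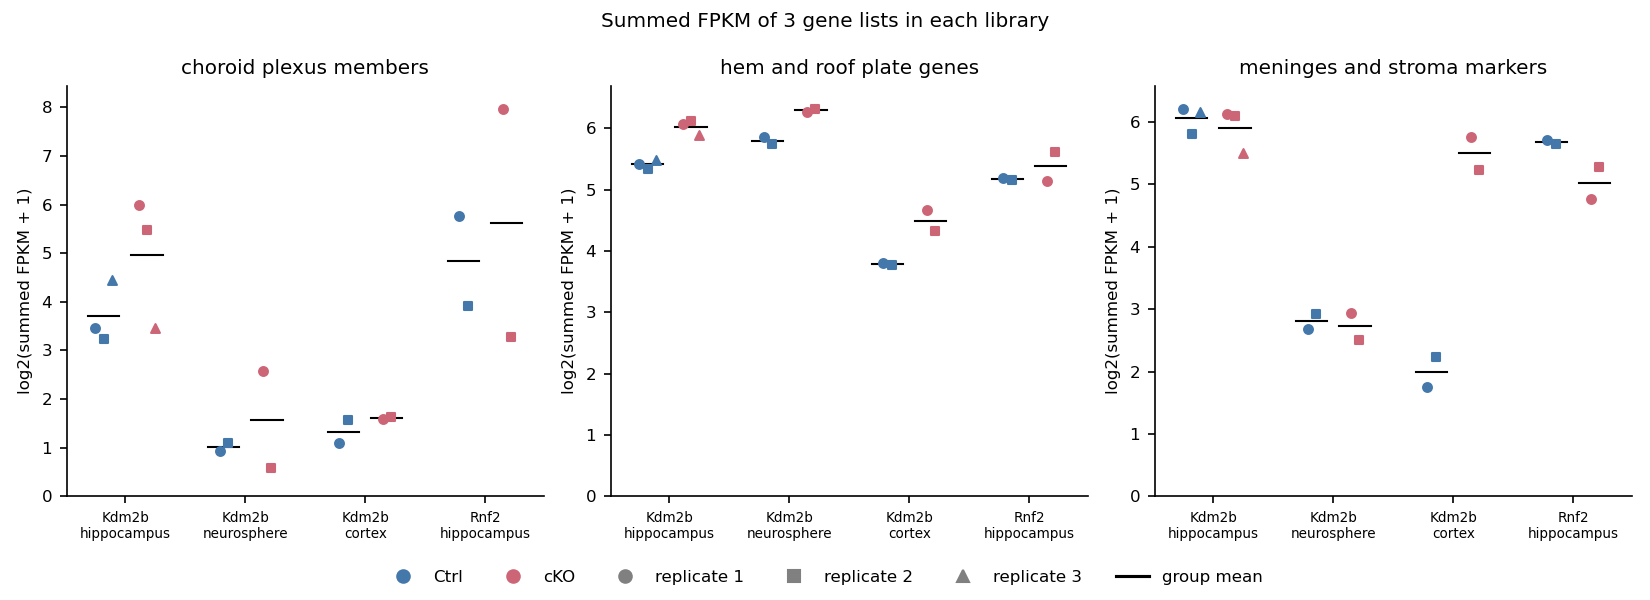
Log2 of the summed FPKM plus 1 (y axis) of the 9 members, 15 hem and roof plate genes and 10 meninges and stroma markers in each library, by comparison (x axis), with blue control and red cKO points, shapes for replicate numbers and bars for group means. The members spread within groups in both hippocampal comparisons, the hem list is higher in all Kdm2b cKO libraries than in their controls, and the meninges list separates cortical cKO (36.7 to 53.3 FPKM) from cortical control (2.37 to 3.73 FPKM).

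In Rnf2 hippocampus, 0 of 5 tested members were called in either direction, beside 2.86% of 15764 genes called higher and 1.85% called lower, and none had an unadjusted p below 0.05 or was called by limma-voom on the recovered reads. Of all genes tested, 0 passed an adjusted p of 0.05 with limma, while 692 were higher and 429 lower at an unadjusted p below 0.05 alone. Libraries of a group differed widely. Ttr was at 47.5 and 11.5 FPKM in controls and at 233 and 6.18 FPKM in cKO, so that cKO contained both the highest and the lowest library. The log2 fold change was 0.73 ± 1.62 (SE, limma adjusted p = 0.943). Without cKO replicate 2 it was 3.24 and called, and without cKO replicate 1 it was -1.78 and not called, with limma adjusted p of 0.999 and 0.997.

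Aqp1 was at 0.763 and 0.220 FPKM in controls and 4.05 and 0.306 FPKM in cKO, a log2 fold change of 0.81 ± 0.63 (SE, limma adjusted p = 0.793). Clic6 was at 0.717 and 0.361 FPKM in controls and 2.57 and 0.489 FPKM in cKO (0.59 ± 0.43 SE, limma adjusted p = 0.783). Folr1 was at 1.25 and 0.364 FPKM in controls and 2.50 and 0.700 FPKM in cKO (0.48 ± 0.42 SE, limma adjusted p = 0.818). Sostdc1 was at 2.44 and 1.15 FPKM in controls and 3.81 and 0.486 FPKM in cKO (-0.03 ± 0.57 SE, limma adjusted p = 0.995). In each of these genes replicate 1 was the higher library of both groups. Without cKO replicate 2, Aqp1 (1.78) and Clic6 (1.22) were called with Ttr, each at a limma adjusted p of 0.999, and without cKO replicate 1 the Clic6 and Folr1 differences were -0.04 in both.

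The untested members followed the same arrangement. Kcnj13 was at 0.368 and 0.101 FPKM in controls and 1.14 and 0 FPKM in cKO, Slc4a5 at 0.104 and 0.0221 and then 0.803 and 0.0426 FPKM, and Kl at 0.0860 and 0.0345 and then 0.149 and 0.0530 FPKM. Calml4 was at 0.312 and 0.282 FPKM in controls and 0.648 and 0.441 FPKM in cKO, and was the only member for which both cKO libraries lay above both controls. cKO replicate 1 was the highest of the 4 libraries for 9 of 9 members, and control replicate 1 was second for 8 of 9. The share of all genes with this order was not counted.

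The reads behind these values set the precision of each library ratio. Ttr had 4688 reads in cKO replicate 1 and 122 in cKO replicate 2, a depth-scaled ratio of 37.6 with an exact 95% interval of 31.4 to 45.4. These intervals cover counting error only, as PCR copies were not marked by molecular identifiers. Slc4a5 had 77 and 4 reads, a ratio of 18.9 (7.07 to 70.9), and Aqp1 had 176 and 13 reads, a ratio of 13.3 (7.55 to 25.4). The ratio was 7.83 (4.48 to 14.8) for Sostdc1, 5.24 (3.56 to 7.96) for Clic6, 3.58 (2.30 to 5.75) for Folr1 and 2.82 (1.22 to 7.28) for Kl. Kcnj13 had 24 reads in replicate 1 and 0 in replicate 2, a ratio whose exact 95% lower limit was 5.89. Against a floor of 3 counts in replicate 2 it was 7.83, without the counting error of replicate 1. Calml4 had 39 and 26 reads, a ratio of 1.47 whose interval of 0.872 to 2.51 included 1.

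The control pair differed the same way with smaller ratios. Ttr had 867 reads in control replicate 1 and 219 in replicate 2, a ratio of 4.12 (3.55 to 4.80). Intervals lay above 1 for 5 of 9 members in the control pair, beside 18.1% of 25185 genes with a read there, and for 8 of 9 in the cKO pair, beside 13.5% of 25909 genes. Among further choroid plexus genes the median ratio was 1.29 in the control pair and 2.23 in the cKO pair, with intervals above 1 for 9 and 17 of 24 genes. In the 15 of those 25 genes that were tested between the groups, 0 were called, and the median log2 fold change was 0.10.

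**Figure D5:**
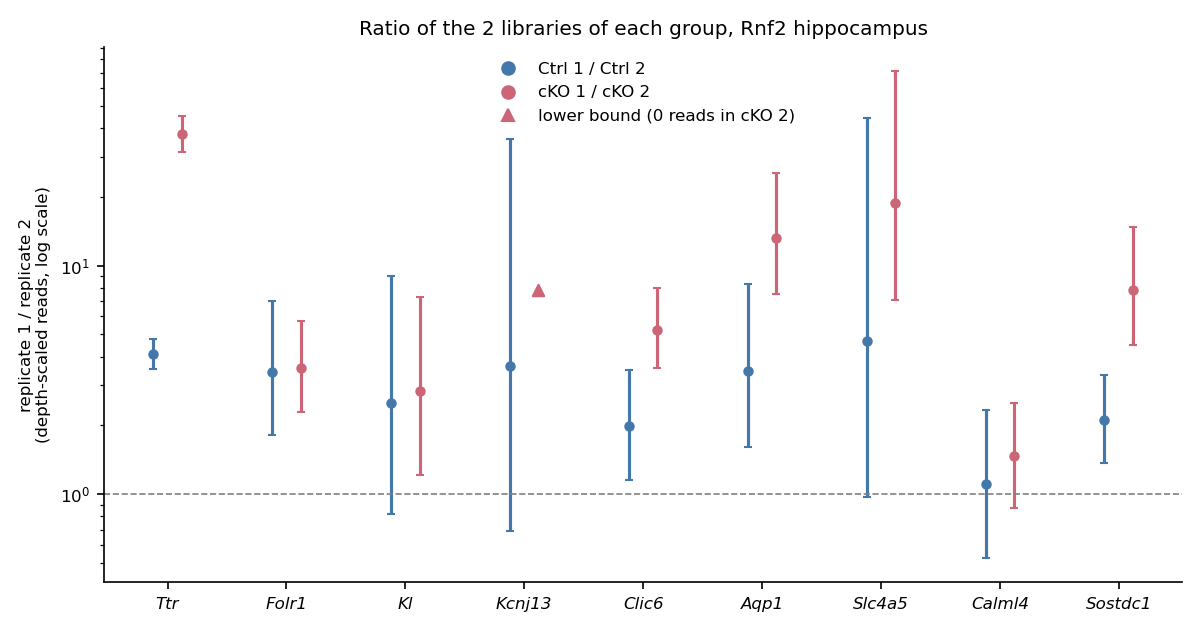
Ratio of replicate 1 to replicate 2 (y axis, depth-scaled recovered reads, log scale) for the control pair in blue and the cKO pair in red of Rnf2 hippocampus, by gene (x axis), with exact 95% counting intervals. The triangle, called a lower bound in the key, is the cKO ratio of Kcnj13 against a floor of 3 counts, and its exact 95% lower limit is 5.89. The cKO ratio of Ttr is 37.6 and that of Calml4 is 1.47, and every point lies above the dashed line at 1.

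Of the 15 hem and roof plate genes, 4 were higher in Rnf2 cKO replicate 1 and 11 in cKO replicate 2. Their summed FPKM was 34.1 in cKO replicate 1, where the members summed to 248 FPKM, and 48.1 in cKO replicate 2, where the members summed to 8.70 FPKM, with 34.6 and 35.5 in controls. Wnt8b was at 1.83 and 4.65 FPKM, Rspo1 at 2.06 and 4.08 FPKM and Wnt3a at 0.636 and 2.60 FPKM in cKO replicates 1 and 2; they were picked after their values were seen. Of the 11 hem and roof plate genes tested 0 were called, nor were any of 14 multiciliated cell genes. Meninges and stroma markers summed to 49.3 to 51.3 FPKM in controls and to 26.1 and 37.7 FPKM in cKO replicates 1 and 2, with 5 of 10 called lower, from -0.42 for Slc6a13 to -0.87 for Col3a1 as log2 fold change. Blood markers summed to 217 to 271 FPKM in controls and 197 to 201 FPKM in cKO, with 1 of 5 tested called lower, endothelium markers to 64.7 to 85.7 and 58.6 to 65.8 FPKM, and thalamus and habenula markers to 18.3 to 18.6 and 18.5 to 19.2 FPKM, with 0 called in either.

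In Kdm2b cortex, Aqp1 was the only member above the filter and was called higher, beside 4.73% of 15691 genes called higher and 2.28% called lower. Its cKO mean of 1.33 FPKM carried it over the filter, as its control mean was 0.222 FPKM. Sostdc1, at means of 0.623 FPKM in controls and 0.282 FPKM in cKO, stayed under the filter. The filter thus favoured a rise here, and 1 call of 1 tested member cannot be set against these shares. Aqp1 was at 0.104 and 0.340 FPKM in controls and 1.47 and 1.18 FPKM in cKO, so both cKO libraries lay above both controls. The log2 fold change was 0.93 ± 0.17 (SE, limma adjusted p = 0.126). It remained called when any of the 4 libraries was left out (0.79 to 1.07), and limma-voom on the recovered reads, 6 and 19 in controls and 76 and 58 in cKO, gave 2.76 (adjusted p = 0.0164). That fit has no pseudocount of 1 FPKM, which holds down the fold change of a gene at this level.

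The other members lay under the filter and were not tested. Sostdc1 was at 0.612 and 0.634 FPKM in controls and 0.114 and 0.450 FPKM in cKO, below both controls. Ttr was at 0 and 0.849 FPKM in controls and 0 and 0.0439 FPKM in cKO, the 0.849 FPKM resting on 22 reads. Kcnj13 was at 0.214 and 0.111 and then 0.241 and 0.295 FPKM, with both cKO libraries above both controls. Folr1, Kl, Clic6, Slc4a5 and Calml4 did not exceed 0.103 FPKM in any cortical library. At 0 reads, the limit that a count of 0 allows is 3 reads.

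Other cell type markers moved with Aqp1 in cortex. All 10 meninges and stroma markers were called higher, with a summed FPKM of 2.37 to 3.73 in controls and 36.7 to 53.3 in cKO. Blood markers summed to 435 to 454 and 624 to 712 FPKM, with 3 of 5 tested called higher, and endothelium markers to 40.8 to 43.1 and 65.0 to 66.4 FPKM, with 4 of 8 called higher. None of the 10 defining markers of meninges was listed at 0 in both control libraries. Their part in the Aqp1 result was not tested. Of the 11 tested further choroid plexus genes 5 were called higher and 0 lower, with a median log2 fold change of 0.20 beside -0.01 over all genes. Slc13a4, a sulfate transporter, rose by 0.95 ± 0.15, Enpp2, which encodes the lysophospholipase D autotaxin, by 0.84 ± 0.13, Spint2 by 0.80 ± 0.14 and Car14, a carbonic anhydrase, by 0.72 ± 0.15 (SE, limma adjusted p = 0.107, 0.0979, 0.127 and 0.159). The remaining called gene, Ace, rose by 0.58 ± 0.15 (SE, limma adjusted p = 0.238). Otx2 was not above 0.0241 FPKM in any cortical library. Of 7 hem and roof plate genes tested 3 were called higher, Bmp7 by 1.89 ± 0.13, Bmp6 by 1.54 ± 0.19 and Msx1 by 1.00 ± 0.21 (SE, limma adjusted p = 0.0240, 0.0720 and 0.173), while 0 of 7 multiciliated cell genes and 0 of 2 thalamus and habenula markers were called.

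In Kdm2b neurospheres only Ttr passed the filter, and it was not called, beside 11.4% of 12227 genes called higher and 13.2% called lower. Ttr was listed at 0 and at 0.250 FPKM in controls and at 3.06 and 0 FPKM in cKO, so that 1 library carried the group mean. That library, cKO replicate 1, also carried Ttr over the filter, as the control mean was 0.125 FPKM. The log2 fold change was 0.85 ± 0.63 (SE, limma adjusted p = 0.366), and without cKO replicate 2, which left 1 cKO library, it was 1.86. Scaling each library to the same FPKM total moved the median of all genes by 0.11 on the log2 scale. The calls went from 1392 higher and 1620 lower to 1250 higher and 826 lower. Ttr was then called at 0.90 (limma adjusted p = 0.0101), a call that still rested on cKO replicate 1 as the only cKO library above 0. cKO replicate 1 was the highest of the 4 libraries for 6 of 9 members, with no share over all genes counted beside it. It was also the only neurosphere library with a blood marker sum above 0, at 3.11 FPKM, and it had 20.7 FPKM of the simple-epithelium keratin Krt8 against no more than 0.336 FPKM in the other 3. The part of these in the Ttr value was not tested.

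Aqp1 was at 0.697 and 0.735 FPKM in control neurospheres and 0.375 and 0.106 FPKM in cKO, below both controls but under the filter. Calml4 was listed at 0 in both controls and at 0.942 and 0.136 FPKM in cKO. Clic6 was listed at 0 in both controls and at 0.258 and 0.0311 FPKM in cKO, and Folr1 at 0 in all 4 libraries. Kl, Kcnj13, Slc4a5 and Sostdc1 did not exceed 0.225 FPKM.

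Of the 25 further choroid plexus genes 10 were tested in neurospheres, 3 were called higher and 2 lower. Otx2 was at 0.0830 and 0 FPKM in controls and 6.54 and 12.8 FPKM in cKO, a rise of 3.29 ± 0.29 (SE, limma adjusted p = 0.00212). Spint2 rose by 1.79 ± 0.57 and Car14 by 0.91 ± 0.30 (SE, limma adjusted p = 0.0753 and 0.0796). Enpp2, which oligodendrocyte precursors also express, fell from 56.6 ± 3.34 FPKM to 25.1 ± 0.631 FPKM (SD, n = 2 in each group), a log2 fold change of -1.14 ± 0.08 (SE, limma adjusted p = 0.00163), and Rdh5, a retinol dehydrogenase, changed by -0.94 ± 0.19 (SE, limma adjusted p = 0.0222). Of 3 hem and roof plate genes tested, Msx1 rose by 0.63 ± 0.14 and Bmp7 by 0.57 ± 0.09 (SE, limma adjusted p = 0.0267 and 0.0107). Of 8 multiciliated cell genes, Myb (0.88 ± 0.17) and Trp73 (0.78 ± 0.18) were called higher and Ccdc39 (-0.68 ± 0.18) lower (SE, limma adjusted p = 0.0172, 0.0330 and 0.0474). Meninges and stroma markers summed to 5.45 to 6.58 FPKM in controls and 4.69 to 6.71 FPKM in cKO. Endothelium markers summed to 5.97 to 7.02 and 5.56 to 7.80 FPKM, with 0 called in either list. Foxc1 made up most of the meninges sum, at means of 5.43 and 3.66 FPKM, and 6 and 5 of the 10 markers were at 0 in the controls. The joined entry of Pecam1 and Polg2 made up most of the endothelium sum, at means of 5.11 and 4.61 FPKM, and Cldn5 was at 0 throughout. These sums thus do not show that such cells were present. Of 2 thalamus and habenula markers tested Gbx2 was called higher (0.99 ± 0.30) and Tcf7l2 lower (-0.76 ± 0.11; SE, limma adjusted p = 0.0658 and 0.00873).

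How far the members moved together was described over the 14 tissue libraries, after removing each group's mean from log2(FPKM + 1). Points of a table share its normalization, and the 2 libraries of a pair mirror each other, so Pearson's r is given with no p. Each gene was set against the mean of the other 8. r was 0.96 for Aqp1, 0.95 for Kcnj13, 0.91 for Slc4a5, 0.90 for Clic6, 0.89 for Ttr, 0.87 for Folr1 and 0.87 for Sostdc1, against 0.30 for Kl and 0.17 for Calml4. Without the Rnf2 cKO pair (12 libraries) r was 0.84 for Aqp1, 0.80 for Ttr, 0.78 for Folr1, 0.77 for Kcnj13, 0.70 for Clic6 and 0.62 for Slc4a5, while it was 0.43 for Sostdc1, -0.11 for Calml4 and -0.30 for Kl. By this measure Ttr, Folr1 and the channel and transporter genes varied together between libraries of a group, and Kl and Calml4 had low r. Kl did not exceed 0.408 FPKM in any library, so its r rests on small differences on this scale. Its read ratio in the Rnf2 cKO pair, 2.82 (1.22 to 7.28), went the same way as those of the genes that varied together.

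Among 10532 other genes whose mean reached 0.5 FPKM in each of the 3 tissue tables, those most like the members' mean by the same measure included Reps2 (0.95), Fibp (0.93), Gm15694 (0.93), Lsg1 (0.92), D17Wsu92e (0.92), Creld2 (0.91), E130006D01Rik (0.91), Tspyl4 (0.91) and Spdya (0.90). None of these is on a list used here. The 8 further choroid plexus genes that passed this filter had r from 0.07 to 0.73 with a median of 0.43, and the 7 hem and roof plate genes from -0.42 to 0.36 with a median of -0.19, beside a median of 0.00 over all genes. These values rest on the Rnf2 cKO pair: without it the medians were 0.09 for the further choroid plexus genes, 0.46 for the hem and roof plate genes and 0.02 over all genes, so the order of both lists turned round.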

How the data were processed

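RNA-seq of 18 mouse libraries was read from 4 tables of FPKM. The FPKM values were deposited by the authors, whose processing notes name cutadapt, STAR, Cufflinks 2.2.1 and DESeq2; the study's methods describe FPKM from Cufflinks, and which tools made the cortex and Rnf2 tables is not given in the sources used here. Of entries that shared a name, such as those of Clic6 in Kdm2b hippocampus, the most abundant on average stood for the gene. Listed genes absent by their own name were read from comma-joined entries, which held no member.

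Each comparison was fitted within its table with limma 3.58.1 in R 4.3.3 (lmFit, eBayes with trend) on log2(FPKM + 1), over genes whose table mean reached 0.5 FPKM. Fold changes are on this scale, which understates the change of low genes. A call required a log2 fold change beyond 0.4 in either direction and an unadjusted p below 0.05; Benjamini-Hochberg values cover all genes tested. The scripts were tested on simulated data. Depth was recovered from the FPKM steps and the deposited gene lengths for cortex and Rnf2 libraries. Per-gene precision there is the exact 95% interval of a ratio of reads.

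The members and the gene lists were chosen with earlier results of these data known. All members are named; of the other lists, up to 4 called genes per table by size of change, and any further called choroid plexus gene was named after its values were seen. Promoters are RefSeq windows (GRCm38.p6). Of the 10 genes most like the members, 1 is not reported here. Alternatives were another pseudocount (0.1), other filters (none, or 1 FPKM), other scalings, no trend, a replicate block, summed entries, adjusted p, no fold change threshold, limma-voom on recovered reads, and leaving out each library. Replicate numbers were not shown to pair libraries.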

Additional observations from a re-analysis of the deposited data

Results flagged for a closer look

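Aqp1 lay above both controls in both cKO libraries of Kdm2b cortex (log2 fold change 0.93) and below both controls in both cKO libraries of Kdm2b neurospheres (-0.48, under the filter there and read from the fit without a filter, limma adjusted p = 0.253). The difference between these 2 comparisons was not tested. No group had enough libraries for a test of single outlying samples.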

How the results depend on the processing

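Of the members' calls, Ttr and Clic6 in Kdm2b hippocampus depended on the processing and Aqp1 in cortex on little. In Kdm2b hippocampus the count of 2 members called higher was 0 with no filter on low values, 0 with the replicate block, 0 at adjusted p under 0.05, 1 with a filter of 1 FPKM (where Clic6 was no longer tested) and 1 with eBayes without trend; leaving out 1 library gave 0 to 2 higher and 0 to 1 lower. In cortex the count of 1 was 0 with a filter of 1 FPKM, where Aqp1 was no longer tested, and 0 at adjusted p under 0.05. In neurospheres the count of 0 higher became 1 with the same FPKM total, and leaving out 1 library gave 0 to 1 in each direction. In Rnf2 hippocampus leaving out 1 library gave 0 to 3 higher. Directions turned only there: Ttr was -0.24 without control replicate 2 and -1.78 without cKO replicate 1, Folr1 -0.044 and Clic6 -0.0377 without cKO replicate 1, and Sostdc1 0.31 without control replicate 1 and 0.82 without cKO replicate 2; over the libraries left out Ttr ranged from -1.78 to 3.24, Folr1 from -0.044 to 0.999, Clic6 from -0.0377 to 1.22 and Sostdc1 from -0.87 to 0.82. With 1 library left in a group, that library is assumed to vary like the other group. Other causes were not tested. Under the replicate block the Kdm2b hippocampus calls of Ttr (limma adjusted p = 0.275) and Clic6 (limma adjusted p = 0.277) were lost and no other member's call changed; deviations of same-numbered libraries correlated at 0.05, -0.10 and -0.09 there, at -0.05 in cortex and at 0.16 in Rnf2 hippocampus. In neurospheres they correlated at -0.28, and a crossed pairing, added after seeing the data, called 1445 genes higher and 1639 lower against 1392 and 1620. Over all genes, calls at adjusted p under 0.05 were 58 higher and 9 lower in cortex, 0 in Rnf2 hippocampus and 395 higher and 198 lower in Kdm2b hippocampus. Without a fold change threshold they were 1537 and 1553 in Kdm2b hippocampus, 2230 and 2439 in neurospheres, 1212 and 801 in cortex, and 692 and 429 in Rnf2 hippocampus. The block gave 552 and 437 in Rnf2 hippocampus, and leaving out 1 library gave 278 to 808 higher and 190 to 772 lower there, and up to 1226 higher in cortex, without control replicate 1. In cortex, the members other than Aqp1 had at most 24 reads in any library, so counting error limits their values.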
